A study of Mus musculus with 4 samples.

Results

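The antiviral effectors and sensors described here are 41 genes that cells switch on in response to interferon, read on every array of the study. They were chosen by name as a module with earlier results of these data known, so counts of members called are not independent of the data. Of the 41, 37 were measured among 9473 measured genes. No probe set was annotated to Ddx58 or Ifi44. Isg15 and Ifi203 were annotated only on probe sets shared with other genes, so no value is given for these 4 genes. A gene with several probe sets, the groups of short probes that each read 1 transcript on this type of array, was represented by the brightest. A gene counted as measured when that probe set lay above a floor of 33.3 signal units on at least 1 array. Each of the 37 did so with LPS and with SEA/LPS. Ifit2, Mx2, Ube2l6 and Dhx58 did so on no other array. Ifit2, Mx2 and Ube2l6 thus count as measured only through the groups where they are high. Dhx58 has another probe set above the floor on every array, and the one used was the brightest only through those groups.

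The samples were CD11c+ dendritic cells labelled IL10-/-, a deletion that the media group carried too. Cells were kept for 6 h with SEA and LPS together (SEA/LPS), with LPS, with SEA or in media alone, with 1 array for each of the 4 groups and the same lot named for all. LPS is lipopolysaccharide of the bacterial outer membrane, which the receptor TLR4 senses. What SEA stands for is not in the labels, which give neither doses, the age or strain of the animals, the tissue the cells came from, nor any pooling. The Il10 probe set read 93.0 with SEA/LPS, 303.6 with LPS, 52.1 with SEA and 37.9 in media, and since it is not known whether it lies in the deleted stretch, it does not check the genotype.

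A single array per group leaves the differences unreplicated, so no test, p-value or SD is given. A gene is called higher or lower only from the size of its difference, which had to reach 2-fold (1 on the log2 scale) with the brighter array above the floor. Where the dimmer array was at the floor, the fold is a bound ("at least"). Fewer expressing cells and less RNA per cell cannot be told apart in such bulk samples.

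Type I interferon, which TLR4 can induce through the adaptor TRIF and the factor IRF3, binds its receptor and acts through the kinases JAK1 and TYK2. The factors they activate include STAT2, which with IRF9 is part of the complex ISGF3. ISGF3 binds the interferon-stimulated response element (ISRE) in promoters and raises transcripts that encode antiviral proteins. In dendritic cells this programme accompanies maturation after contact with microbial products.

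The ISRE is built around paired GAAA tetranucleotides, so the promoters of the members were searched for GAAANNGAAA on both strands. RefSeq promoters of build GRCm38.p6, each 250 bases before to 50 after a transcript's start, were found for 26 of the 37 measured members. The stretches of 100 bases below are those of the 6 measured members with such a core before the start, printed on the gene's own strand with the core in capitals; base -1 is the one just before the start. Where the core lies on the opposite strand, as in Ifit1, Ifit3 and Rsad2, the capitals show its complement, which starts with TTTC. Other transcripts of a gene can start elsewhere.
Ifit1, chr19:34640749-34640848, plus strand, bases -140 to -41: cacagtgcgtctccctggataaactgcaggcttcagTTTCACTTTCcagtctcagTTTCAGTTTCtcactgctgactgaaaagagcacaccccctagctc
Ifit3, chr19:34583345-34583444, plus strand, bases -184 to -85: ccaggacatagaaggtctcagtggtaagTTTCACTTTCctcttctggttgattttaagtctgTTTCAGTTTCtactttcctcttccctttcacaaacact
Oas1a, chr5:120907526-120907625, minus strand, bases -100 to -1: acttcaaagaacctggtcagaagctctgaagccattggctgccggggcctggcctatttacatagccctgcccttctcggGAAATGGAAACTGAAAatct
Oas3, chr5:120777680-120777779, minus strand, bases -120 to -21: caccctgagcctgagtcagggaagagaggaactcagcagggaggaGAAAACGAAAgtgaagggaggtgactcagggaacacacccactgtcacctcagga
Rsad2, chr12:26456518-26456617, minus strand, bases -165 to -66: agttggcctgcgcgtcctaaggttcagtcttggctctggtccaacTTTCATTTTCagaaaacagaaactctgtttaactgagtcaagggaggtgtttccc
Bst2, chr8:71537545-71537644, minus strand, bases -172 to -73: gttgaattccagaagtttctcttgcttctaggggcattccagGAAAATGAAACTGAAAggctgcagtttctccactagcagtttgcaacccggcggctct
Ifit1 and Ifit3 each hold 2 separate cores, while the 2 cores of Oas1a and of Bst2 overlap and share a GAAA. A further 4 measured members, Ifih1, Eif2ak2, Trim21 and Ifitm3, hold the core only after the start.

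LPS against media asks how the members respond to LPS alone. Of the 37 measured members 33 were at least 2-fold higher with LPS than in media, against 6.06% of all measured genes, and 0 were at least 2-fold lower, against 8.43%. The 33 include Ifit2, Mx2, Ube2l6 and Dhx58, whose probe sets used were above the floor only on the arrays with LPS. Each of the 37 read above its media value, and the median log2 difference was 2.53, with -0.06 over all measured genes. Their sizes spanned a wide range, from 0.49 for Adar to bounds of 6.65 for Oasl1 and 6.71 for Ifit2. Scaling the arrays to the 18 hybridisation controls moved the median of all genes to -0.56 and the shares of all genes called higher and lower to 2.98% and 25.5%; scaling to the 75th percentile gave 7.64% and 6.14%. The members' median stood 2.54 above that of all genes when scaled to the hybridisation controls, and 2.59 above it as deposited. Of the 31 members above the floor on both arrays, 12 were among the 50 highest of 7695 such genes and 18 among the 100 highest.

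**Figure D1:**
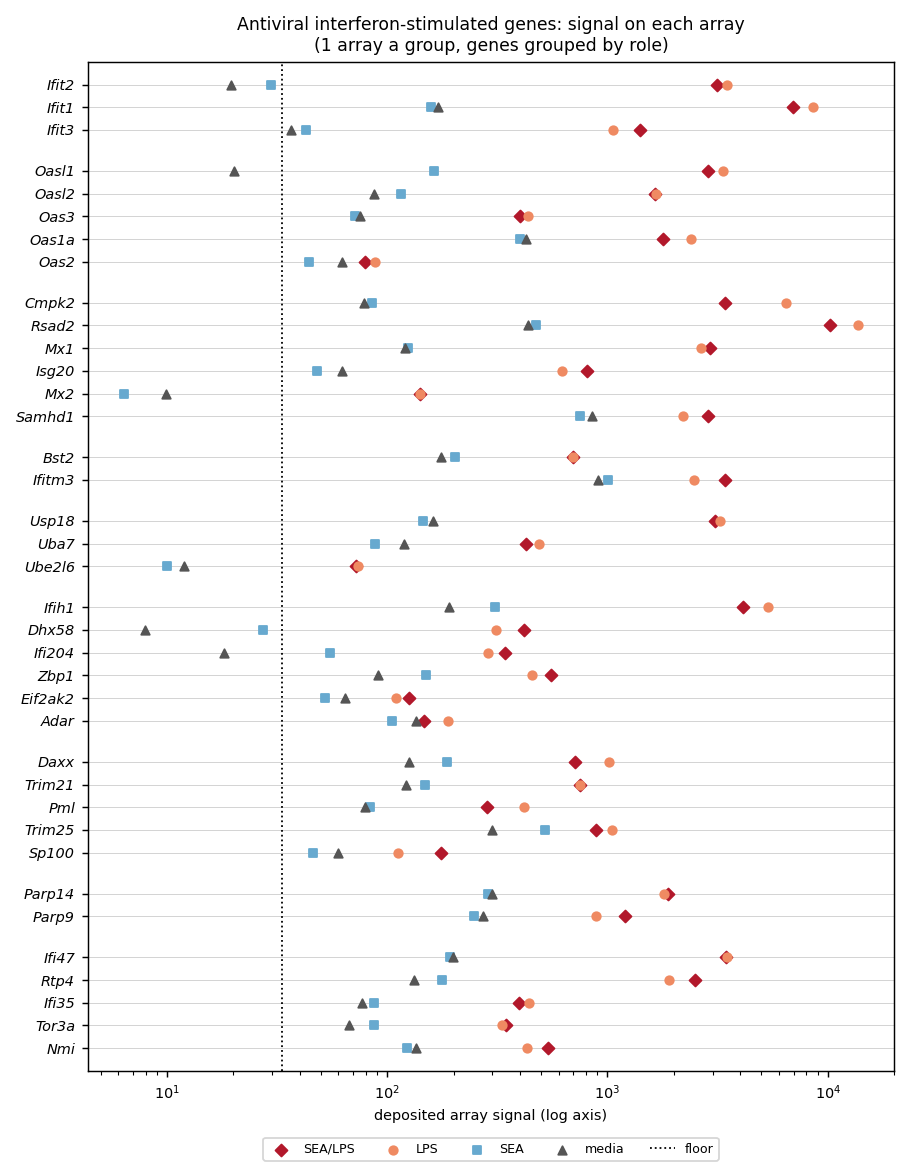
Deposited array signal (log axis) of the 37 measured members, grouped by role, with 1 point for each array (SEA/LPS, LPS, SEA and media) and the floor of 33.3 as a dotted line. In all 37 rows the points of both arrays with LPS lie to the right of both arrays without it.

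On all 37 members, both arrays with LPS read above both arrays without it, which also held for 17.3% of all measured genes. The plot of signals by array shows this as a gap within each row, narrow for Adar and Oas2 and widest for Ifit2, Ifit1 and Cmpk2. The brightest array was LPS for 20 members and SEA/LPS for 17.

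The IFIT proteins bind viral RNA that lacks the cap modifications of host transcripts, and their genes were among the most responsive. Ifit1 read 6988.1 with SEA/LPS, 8559.8 with LPS, 157.6 with SEA and 169.2 in media. The 2 arrays with LPS lay far above the others, 50.6-fold for LPS over media. Ifit2 read 3138.0 with SEA/LPS and 3487.2 with LPS, and was at the floor with SEA and in media. LPS over media was thus at least 104.7-fold for Ifit2. Ifit3 read 1403.6 with SEA/LPS, 1064.6 with LPS, 42.7 with SEA and 36.5 in media, a 29.2-fold difference for LPS over media from a media signal just above the floor.

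Enzymes of the OAS family make the second messenger that activates RNase L on meeting double-stranded RNA, whereas mouse Oasl1 is known as an inhibitor of Irf7 translation. Oasl1 read 2867.7 with SEA/LPS, 3336.3 with LPS, 162.3 with SEA and was at the floor in media. It was the one member whose SEA array also stood well apart from media. Oasl2 read 1639.5 with SEA/LPS, 1659.0 with LPS, 115.7 with SEA and 87.3 in media, a 19.0-fold difference for LPS over media. Oas1a and Oas3 gave smaller folds of the same comparison, 5.60 and 5.78. Oas2 did not pass 2-fold, with 79.1 with SEA/LPS, 88.2 with LPS, 43.9 with SEA and 62.1 in media. Its log2 difference for LPS over media was 0.51 as deposited and -0.05 after scaling to the hybridisation controls.

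Among the GTPases and the enzymes acting on nucleotides or nucleic acids, all 6 measured members were higher with LPS. Cmpk2, a mitochondrial nucleoside monophosphate kinase, read 3428.5 with SEA/LPS, 6486.5 with LPS, 85.6 with SEA and 78.1 in media. Rsad2 encodes viperin, which makes a chain-terminating nucleotide, and read 10250.6 with SEA/LPS, 13687.5 with LPS, 472.7 with SEA and 434.5 in media. In both genes the arrays without LPS were close to each other and the 2 arrays with LPS were apart from them, by 83.1-fold and 31.5-fold for LPS over media. Mx1, a dynamin-like GTPase that blocks influenza virus in the mouse nucleus, read 2906.4 with SEA/LPS, 2653.0 with LPS, 124.0 with SEA and 120.5 in media. Isg20, an exonuclease, was 9.97-fold higher for LPS over media. Mx2 was at the floor without LPS and at least 4.24-fold higher with it, a bound that shrank to 0.91 log2 when the floor was raised to the 60th percentile. Samhd1, which depletes the nucleotides needed for reverse transcription, was 2.61-fold higher as deposited and at 0.83 log2 when scaled to the hybridisation controls.

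The membrane factors were read on every array. Bst2, tetherin, which holds budding virions at the cell surface, read 699.9 with SEA/LPS, 698.3 with LPS, 203.1 with SEA and 176.2 in media. Ifitm3, which hinders the entry of viruses from endosomes, read 3401.2 with SEA/LPS, 2465.3 with LPS, 1006.6 with SEA and 906.7 in media. Both were higher for LPS over media, at 1.99 and 1.44 log2. Scaling to the hybridisation controls left Ifitm3 at 0.89.

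The ubiquitin-like modifier ISG15 is attached to proteins by the activating enzyme Uba7 and the conjugating enzyme Ube2l6, and is removed by Usp18, which also damps signalling at the type I interferon receptor. Usp18 read 3066.2 with SEA/LPS, 3255.7 with LPS, 146.0 with SEA and 161.2 in media. Uba7 read 425.7 with SEA/LPS, 490.7 with LPS, 88.0 with SEA and 118.7 in media. The remover was thus 20.2-fold and the activating enzyme 4.13-fold higher for LPS over media. Ube2l6 was dim, at 72.3 with SEA/LPS and 73.3 with LPS and at the floor on the other arrays. Its LPS over media difference was a bound of at least 2.20-fold, or 0.84 log2 when scaled to the hybridisation controls.

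Of the 6 measured sensors of RNA and DNA, 4 were higher with LPS. Ifih1, which encodes MDA5, a sensor of long double-stranded RNA, read 4120.9 with SEA/LPS, 5346.4 with LPS, 308.6 with SEA and 189.7 in media. Zbp1, which binds nucleic acids in the Z form, read 555.7 with SEA/LPS, 451.8 with LPS, 150.4 with SEA and 90.9 in media. The same order of the arrays without LPS, SEA above media, held for Ifi204, a member of the DNA-binding IFI200 family. Ifi204 read 343.3 with SEA/LPS, 286.1 with LPS, 55.2 with SEA and was at the floor in media. Dhx58, which encodes LGP2, was at the floor without LPS and at least 9.35-fold higher with it, on the probe set used. Eif2ak2, the kinase PKR, and Adar, which edits adenosine to inosine in double-stranded RNA, stayed under 2-fold. Their LPS over media differences were 0.77 and 0.49 log2, and Adar was at -0.07 when scaled to the hybridisation controls.

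Among ubiquitin ligases of the TRIM family and proteins of nuclear bodies, 4 of 5 were higher with LPS. Trim21, a cytosolic antibody receptor, read 750.5 with SEA/LPS, 747.2 with LPS, 148.7 with SEA and 121.5 in media. Trim25, which ubiquitinates the sensor RIG-I, read 887.1 with SEA/LPS, 1047.9 with LPS, 518.5 with SEA and 299.3 in media. Its SEA value lay between media and the arrays with LPS. The organiser of nuclear bodies Pml and its partner Daxx were 5.24-fold and 8.08-fold higher for LPS over media. Sp100, another component, read 174.9 with SEA/LPS, 111.6 with LPS, 46.1 with SEA and 59.5 in media, under 2-fold for LPS over media and over 2-fold for SEA/LPS over media.

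The ADP-ribosyltransferase family members Parp14 and Parp9 were 6.05-fold and 3.29-fold higher for LPS over media. The remaining 5 measured members were all higher, from 3.18-fold for Nmi through Tor3a (4.94), Ifi35 (5.75) and Rtp4 (14.3) to Ifi47 (17.7). Ifi47 is an immunity-related GTPase, and Nmi and Ifi35 encode proteins that bind each other. Rtp4 read 2497.8 with SEA/LPS, 1896.8 with LPS, 176.9 with SEA and 132.5 in media.

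**Figure D2:**
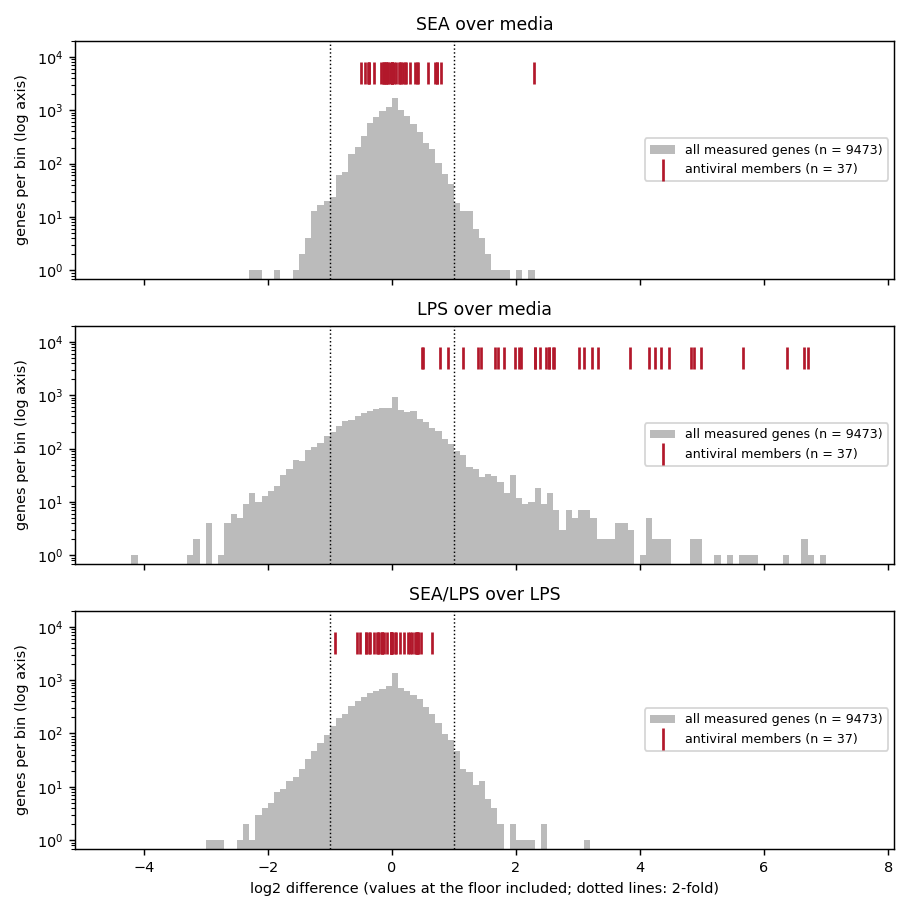
Histograms (grey, log count axis, bins of 0.1 log2) of the log2 difference over all 9473 measured genes in 3 panels (SEA and LPS each over media, then SEA/LPS over LPS), with the 37 members as red ticks, bounds included. The members lie at 0.49 to 6.71 for LPS over media, and between -0.92 and 0.65 for SEA/LPS over LPS.

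SEA against media asks what SEA does alone. Of the 37 measured members, Oasl1 alone was at least 2-fold higher with SEA, by at least 4.87-fold, and 0 were lower; the shares over all measured genes were 0.644% and 0.633%. The median log2 difference was 0.00 for the members and 0.00 for all measured genes. Below 2-fold, the highest values belonged to Trim25 (0.79), Ifi204 (a bound of 0.73), Zbp1 (0.73), Ifih1 (0.70) and Daxx (0.58). The lowest were Oas2 (-0.50), Uba7 (-0.43) and Isg20 (-0.38). Oasl1 marks the right end of the SEA histogram, at a bound of 2.29 log2. Of the 31 members above the floor on both arrays, 0 were among the 100 highest of 7967 such genes and 3 among the 200 highest. Oasl1 has a single probe set, so no second reading of its value was to be had. Among members that differed strongly with LPS, the SEA log2 differences of Ifit1, Mx1, Usp18 and Rsad2 lay between -0.14 and 0.12. Those of Ifi47, Cmpk2 and Ifit3 were -0.04, 0.13 and 0.23, and those of Oasl2, Rtp4 and Ifih1 were 0.41, 0.42 and 0.70. Other probe sets of Rsad2 read -0.53 and 0.32.

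SEA/LPS against LPS asks whether SEA alters the members in cells that also meet LPS. Of the 37 measured members 0 were at least 2-fold higher and 0 lower, against 1.39% and 3.47% of all measured genes (3.14% and 1.41% when scaled to the hybridisation controls). A background that low leaves little room for calls among 37 genes, so the counts alone set the members apart from nothing. The median log2 difference was -0.02 for the members and -0.01 for all genes, and 20 members lay below 0 and 17 above. Under that scaling, which shifts all genes, 9 lay below and 28 above. The medians were then 0.225 for the members and 0.107 for all genes. On the probe sets used, the largest differences were in Cmpk2 (-0.92), Pml (-0.56), Daxx (-0.51), Sp100 (0.65) and Ifitm3 (0.46). Of 15 other probe sets of the members, 2 were past 2-fold lower (Trim25 -1.61 and Tor3a -1.35) and 0 past 2-fold higher. The 5 OAS family genes ran from -0.42 to -0.02 as deposited and from -0.18 to 0.22 when scaled to the hybridisation controls.

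**Figure D3:**
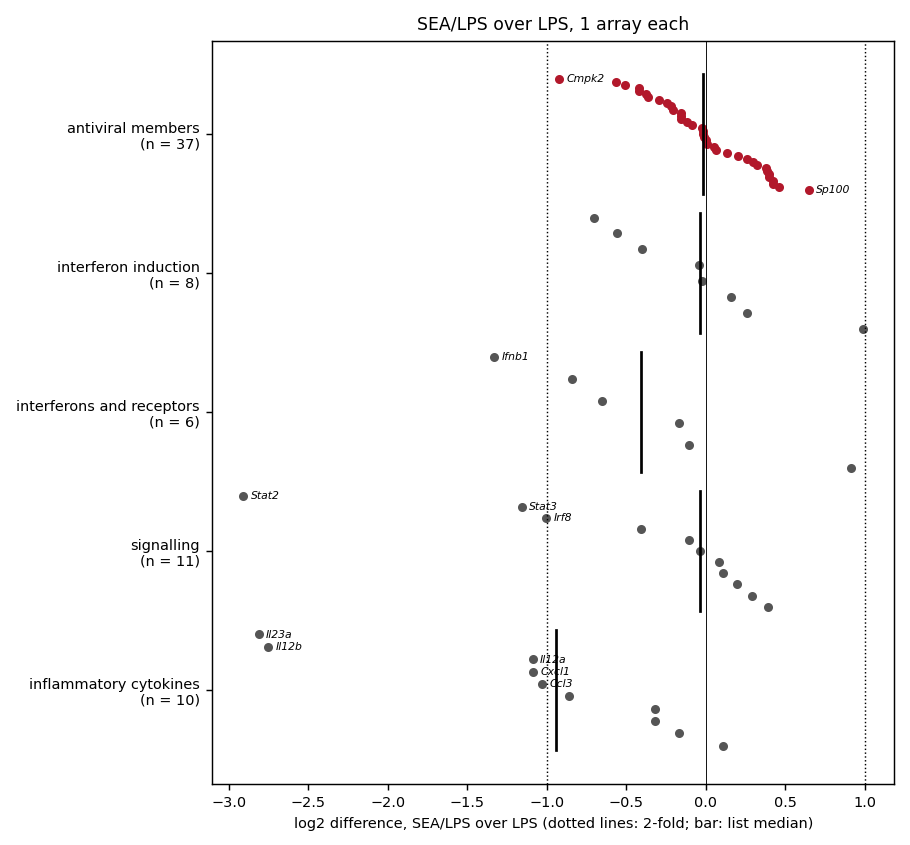
Log2 difference of SEA/LPS over LPS for the 37 measured members (red) and for 4 lists of other genes (grey), 1 point a gene, with list medians as bars and 2-fold as dotted lines. On the probe sets used, every member lies inside the dotted lines, while Stat2, Ifnb1, Stat3, Irf8 and 5 inflammatory cytokines lie left of them. Scaled to the hybridisation controls, Stat2, Ifnb1 and 2 of the cytokines lie left of them. Of 15 other probe sets of the members, 2 were past 2-fold lower (Trim25 -1.61 and Tor3a -1.35) and 0 past 2-fold higher. Other probe sets of Stat3 read 0.04 and 0.33.

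Other genes of the pathway, and inflammatory cytokines, were read on the same arrays. These lists too were chosen with earlier results of the data known. Ifnb1, which encodes interferon beta, read 51.4 with SEA/LPS, 129.0 with LPS, and 37.3 in media, and was at the floor with SEA. Stat2, the subunit of ISGF3 noted above, read 100.6 with SEA/LPS, 754.6 with LPS, 82.3 with SEA and 78.6 in media. Its SEA/LPS over LPS difference of -2.91 log2 was -1.67 on its other probe set. Irf9, also a subunit, was at 0.40 in the same comparison. Irf7, a factor that amplifies interferon production, read 803.2 with SEA/LPS, 1058.3 with LPS, 137.5 with SEA and 78.8 in media. Both arrays with LPS thus lay above both others, as in the members. For SEA/LPS over LPS, 0 of 8 induction genes and 1 of 6 interferon and receptor genes were lower. So were 3 of 11 signalling genes and 5 of 10 inflammatory cytokines, against 3.47% of all measured genes. As deposited and on the probe sets used, 0 of any of these lists was higher, against 1.39% of all measured genes. The induction gene Tlr4 was just under 2-fold higher, at 0.992. Its other probe set passed 2-fold higher, with 103.9 with SEA/LPS and 36.7 with LPS. Tlr4 also passed 2-fold higher when scaled to the 75th percentile (1.056) and after quantile normalization (1.022). Of the 3 signalling genes, Stat3 was at -1.16 on the probe set used but at 0.04 and 0.33 on its others, and Irf8 was barely past 2-fold lower, with -1.67 on its other probe set. When scaled to the hybridisation controls, 0 induction genes and 1 interferon or receptor gene (Ifnb1) were lower. Stat2 was then the 1 signalling gene lower, and Il12b and Il23a were the 2 cytokines. Tlr4 (1.23) and Ifngr1 (1.16) were higher. Over all genes, that scaling gave 1.41% lower and 3.14% higher. It was applied to these lists after the data were seen. The medians as deposited were -0.03 for induction, -0.41 for interferons and receptors, -0.04 for signalling and -0.94 for cytokines, and -0.02 for the members; no difference between lists was tested. For LPS over media, 2, 2, 6 and 10 of them were higher and 1 induction gene, Mavs, was lower. The shares over all measured genes were 6.06% and 8.43%. The hybridisation control scaling made the higher counts 1, 1, 3 and 10, with 3 induction genes and 1 interferon or receptor gene lower. Under it 2.98% of all genes were higher and 25.5% lower.

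LPS acting in cells exposed to SEA gives a second reading on a separate pair of arrays. For SEA/LPS over SEA, 34 of 37 members were at least 2-fold higher and 0 lower, against 4.67% and 6.38% of all measured genes. The median was 2.27 for the members, with -0.15 for all genes. The 3 members under 2-fold were Oas2 (0.85), Trim25 (0.78) and Adar (0.49). Eif2ak2 and Sp100 were at 1.26 and 1.92 in this pair and at 0.77 and 0.91 for LPS over media. Against media, SEA/LPS gave 34 of 37 members higher and 0 lower, with 4.54% and 7.05% of all genes and a median of 2.51. Both counts of 34 include Ifit2, Mx2, Ube2l6 and Dhx58, whose probe sets used were above the floor only on the arrays with LPS. Another probe set of Dhx58 read -0.47 log2 for SEA/LPS over SEA and -0.56 for SEA/LPS over media.

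The LPS response with SEA minus the response without it equals the SEA difference with LPS minus that without, and was computed for the 31 members above the floor on all 4 arrays. Its median was -0.02 for these members and -0.02 for 7142 genes. It was under -1 for 4 members, Daxx (-1.09), Ifih1 (-1.08), Cmpk2 (-1.05) and Trim25 (-1.03), and over 1 for Sp100 (1.02). Over all genes, 5.91% were under -1 and 2.95% over 1. For Daxx, Ifih1 and Trim25 the SEA value lay above media and the SEA/LPS value below LPS, while for Cmpk2 the SEA and media values differed by 0.13 log2. None of these 4 stayed past -1 when scaled to the hybridisation controls, where they ran from -0.77 to -0.71. Sp100 was then at 1.34, and Isg20, at 0.76 as deposited, was at 1.09. That scaling shifts the departures of all genes upward, and the members' median was 0.31 under it. With 32 units added to each signal in place of the floor, Sp100 was at 0.755.

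**Figure D4:**
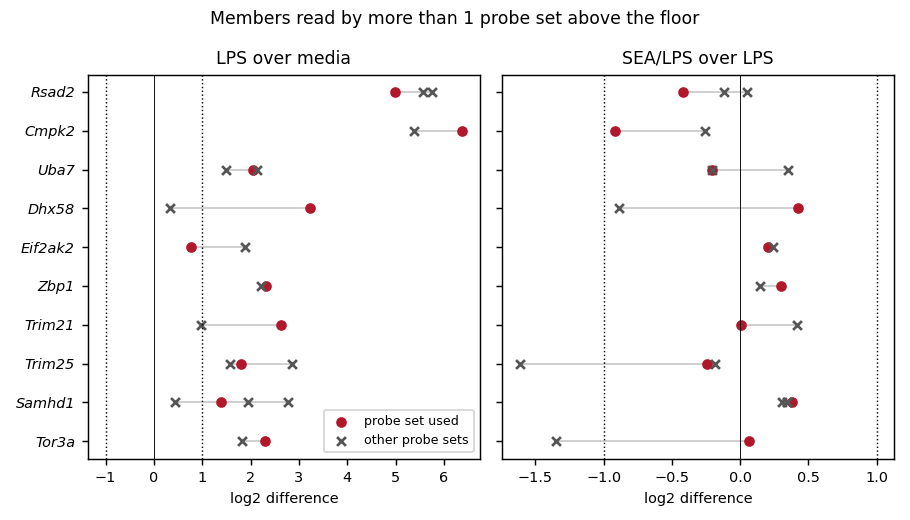
Log2 difference of LPS over media (left) and SEA/LPS over LPS (right) for the 10 members with over 1 probe set above the floor, with the probe set used as a red point and the others as grey crosses. For LPS over media all lie right of 0, and for SEA/LPS over LPS a cross of Trim25 and one of Tor3a lie left of -1.

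Another 15 probe sets above the floor read 10 of the members. All 15 gave the same sign as the probe set used for LPS over media, and 12 of them at least 2-fold. Sizes differed, as the plot of probe sets shows. Samhd1 spanned 0.44 to 2.77 over its 4 probe sets, Eif2ak2 read 0.77 on the one used and 1.88 on the other, and Trim21 read 2.62 and 0.98. The other probe set of Dhx58 above the floor, at 59.2 with SEA/LPS, 109.3 with LPS, 82.1 with SEA and 87.1 in media, differed by 0.33 log2 for LPS over media. For SEA/LPS over LPS 11 of 15 agreed in sign. Trim25 read -1.61 on one of its other probe sets (298.0 with SEA/LPS and 912.2 with LPS) and -0.18 on another. Tor3a read 0.07 on the one used and -1.35 on the other (117.5 with SEA/LPS and 299.9 with LPS). Cmpk2 read -0.25 on its other probe set, a smaller size than the -0.92 above. For SEA over media 6 of 15 agreed in sign. Zbp1 read -0.15 and Trim25 0.52 and 0.30 on their other probe sets in that comparison, and one of Samhd1 read 1.28 where the one used read -0.18.

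**Figure D5:**
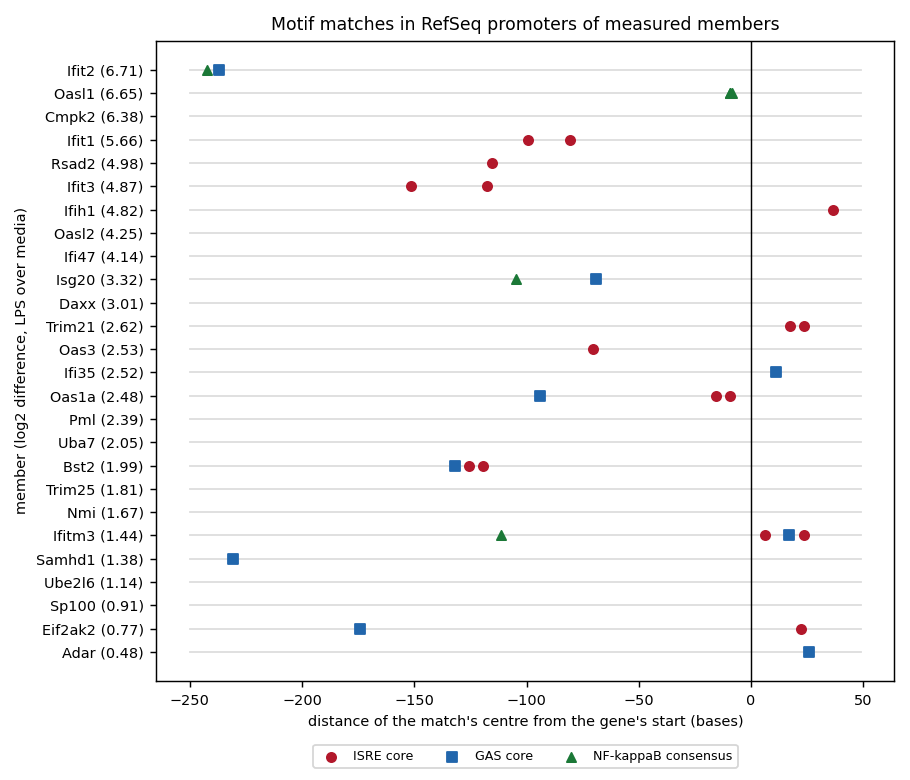
Distance of each motif match's centre from the transcript's start, in bases, in the promoters of the 26 measured members that have one, ordered by the log2 difference of LPS over media given beside each name. ISRE cores (red) occur in genes from Ifit1 at 5.66 to Eif2ak2 at 0.77, and the 3 genes at the top hold none.

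Turning back to the sequences printed above, the ISRE core was found in the promoters of 10 of the 26 measured members (38.5%), against 4.02% of 7694 measured genes with a promoter and 3.99% of all 27025 genes in the table. As the map of motif matches shows, the core did not order the members by response. The 10 with a core had a median LPS over media difference of 2.58 (0.77 to 5.66), and 9 of them were at least 2-fold higher. The 16 without one had a median of 2.46 (0.49 to 6.71), and 14 of them were at least 2-fold higher. Ifit2, Oasl1 and Cmpk2, at the top of the range, are among those without one. A match describes letters in this window and is not evidence of a bound site, and a promoter without one may differ from these letters by a base or hold the element outside the window.

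Array quality and cell markers varied as follows. The median probe set signal lay between 45.1 and 53.2 on the 4 arrays, and the 3' to 5' signal ratio of Gapdh, a sign of RNA integrity, between 2.21 (media) and 3.12 (SEA/LPS). The hybridisation controls were 0.31 log2 brighter with SEA/LPS, 0.55 with LPS and 0.09 with SEA than in media. All 8 dendritic cell markers were above the floor on at least 1 array, though not all were bright. Itgax, which encodes CD11c, read 2093.3 with SEA/LPS, 1850.7 with LPS, 2180.8 with SEA and 2731.7 in media. Flt3 was at the floor with SEA/LPS and read 40.2 with LPS, 48.7 with SEA and 62.2 in media. Cd209a was near the floor on every array, between 36.3 (SEA) and 49.8 (media). H2-Ab1 read 3436.7 with SEA/LPS, 8108.7 with LPS, 6114.1 with SEA and 5558.0 in media. All 5 macrophage markers were above the floor on every array, with sums of 7650.6, 6586.4, 7714.4 and 7779.8 in the same order of groups. Fcgr1 (1035.7, 620.5, 452.1 and 403.7) and Mertk (465.9, 442.9, 294.6 and 362.7) were higher on both arrays with LPS than on the others. Adgre1, Csf1r and Cd68 were not. The T cell markers Cd3e, Cd3d, Cd3g and Cd4 were at the floor on all 4 arrays, while Cd8a read 37.6 with SEA/LPS and 61.7 with LPS and was at the floor with SEA and in media. Markers of B, NK and erythroid cells were at or near the floor. The NK sums were 75.5, 89.5, 50.4 and 56.8 in the same order of groups. Of the 3 plasmacytoid dendritic cell markers with a probe set of their own, 2 were above the floor on at least 1 array and summed to 714.8 with SEA/LPS, 765.9 with LPS, 178.3 with SEA and 162.7 in media. Most of that was Tcf4, and Ly6d was at the floor throughout. Neutrophil markers, 2 of 3 above the floor, summed to 243.9, 206.3, 156.6 and 116.5 in that order, with S100a9 at the floor throughout. The neutrophil, plasmacytoid and NK sums, Fcgr1, Mertk and Cd8a move with the members' LPS difference, and their part in it was not tested. In these sums S100a8, Tcf4 and Gzma were higher on both arrays with LPS than on the others. Ncr1 was not, at 34.4 with SEA/LPS and 41.5 in media. Elane was highest with SEA, at 66.5 against 51.6 with LPS. Ccr9 read 36.1 with LPS and 35.0 with SEA, and was at the floor with SEA/LPS and in media.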

How the data were processed

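The deposited table of the authors holds 1 linear intensity per probe set for 22690 Affymetrix probe sets and 4 arrays. Judged from the deposited intensity values, each array had been scaled by the authors to the same 2% trimmed mean (150.1); software and background step: not given in the sources used here. Such scaling hides differences in total RNA. Scanner files were not analysed here.

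Probe sets were named through the platform annotation, updated by Entrez identifier to GRCm38.p6 (20351 matched). Of the 22690, 20380 had 1 symbol, 691 several, 1555 none and 64 were controls; those with 1 symbol were used, naming 12393 genes. The floor was the 40th percentile of all signals pooled (33.3); lower signals were raised to it before taking log2. The probe set with the highest mean log2 stood for its gene. A step tested on simulated signals recovered known folds. Members, lists and motifs were chosen with earlier results of these data known. The planned rule for sequences took the 2 largest LPS responders with an ISRE core in each of 4 roles. Of these, Ifih1 and Eif2ak2 hold it only after the start and are not printed, the measured ISG15 system genes had none, and Ifit1, Ifit3, Oas1a and Oas3 are printed. Rsad2 and Bst2 were added after their values were seen, so that all 6 measured members with a core before the start are shown. Other scalings, floors, probe set rules and fold thresholds were tried. Python 3.11.15, numpy 2.4.6, pandas 2.3.3, scipy 1.17.1 and matplotlib 3.10.9 were used.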

Additional observations from a re-analysis of the deposited data

How the results depend on the processing

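The number of members higher for LPS over media lay between 30 and 35 over the scalings, floors, probe set rules and fold thresholds tried, against 33 as reported, and those for SEA/LPS over SEA and over media lay between 31 and 36 and between 31 and 35, against 34 each. The shares of all genes ran from 2.745% to 14.15%, 2.016% to 9.458% and 1.963% to 9.891% in that order. Each was lowest at the 3-fold and highest at the 1.5-fold threshold. With the floor at the 60th percentile 36 members were measured. No member was lower in these 3 comparisons or for SEA over media under any of them, though Adar and Oas2 fell below 0 for LPS over media under scaling to the hybridisation controls. For SEA over media, 5 members were higher at a 1.5-fold threshold (5.11% of all genes) and 2, Oasl1 and Ifi204 (1.60 log2), with the floor at the 20th percentile (3.83% of all genes). For SEA/LPS over LPS, 1 member was higher and 1 lower at 1.5-fold, against 7.76% and 13.4% of all genes. The median departure between the SEA differences with and without LPS, -0.02 as reported, was 0.31 under scaling to the hybridisation controls and -0.20 with the floor at the 60th percentile. Dhx58 reversed with the floor at the 20th percentile, since another probe set then became the brightest: it read -0.47 for SEA/LPS over SEA and -0.56 for SEA/LPS over media, and 0.33 for LPS over media. Without probe sets marked as able to cross-hybridise, Trim25 had a departure of -0.70. The 6 members at the floor in media have only bounds, which move with the floor. No paired analysis was possible because each group has 1 array, and leaving out a replicate was not possible for the same reason.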

Other observations

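Other motifs were searched in the same promoters. The core of the gamma-activated sequence, TTCNNNGAA, which reads the same on both strands, was found for 9 of the 26 measured members with a promoter (34.6%), against 8.19% of measured genes. Oas1a, Bst2, Eif2ak2 and Ifitm3 hold both this and the ISRE core. The NF-kappaB consensus was found on either strand for 4 members (15.4%), against 8.68% of measured genes. These were Ifit2, Isg20, Ifitm3 and Oasl1, and the 3 matches of Oasl1 overlap one another just before the start. Of the 426 other genes with a promoter that were at least 2-fold higher for LPS over media, 8.92% held the ISRE core, 8.69% the TTCNNNGAA core and 11.0% the NF-kappaB consensus.

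Members of one family differed in size. All 3 IFIT genes lie on chromosome 19 and all 5 OAS genes on chromosome 5, where the LPS over media difference ran from 0.51 for Oas2 to a bound of 6.65 for Oasl1. Cmpk2 and Rsad2 share chromosome 12 and were at 6.38 and 4.98.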
